A study of Mus musculus with 12 samples.

Results

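This comparison asks what the loss of Stab1 changes in liver sinusoidal endothelial cells that already lack Stab2. The 3 arrays of Stabilin-double-deficient cells (DKO, genotype label Stab DKO, lacking Stab1 and Stab2) were set against the 3 arrays of Stab2KO cells (lacking Stab2 only), chosen by their titles, so that 6 of the 12 arrays of the study carry the comparison. The absence of Stab2 is common to both groups, and Stab1 is the gene that should differ. The other 6 arrays are wild type (WT, 3 arrays) and Stab1KO (lacking Stab1 only, 3 arrays), and give the same Stab1 loss with Stab2 present. The strain label of every sample is C57BL/6J, the mice were 3 to 4 months old, and the RNA of each array came from cells of 3 pooled mice, taken up directly after isolation with CD146 beads. CD146 beads bind endothelial cells, so cells of other types can remain in a preparation. The labels do not give the design of the knockout alleles, the sex of the mice or whether the genotypes were littermates. Counts are given with all 3 DKO arrays and again without DKO replicate 3, and a call made with all arrays that was lost without that array is named as such.

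Liver sinusoidal endothelial cells line the capillaries of the liver. They are perforated by open pores called fenestrae and take up waste molecules from the blood at a high rate. The proteins made from Stab1 and Stab2, named stabilins, are large scavenger receptors of class H on their surface and bind ligands such as oxidised lipoproteins and matrix fragments. Stabilin-2 is also the main clearance receptor for hyaluronan. Ligand taken up by these receptors is carried through clathrin-coated vesicles to the lysosome.

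The values are log2 expression values, so a difference of 1 is a doubling on the array scale, and differences are given as DKO minus Stab2KO. The Stab1 level was 12.48, 12.52 and 12.59 in the 3 Stab2KO arrays and 5.44, 5.27 and 4.98 in the 3 DKO arrays, a difference of -7.30. The Stab2 level was low in both groups, at 7.40, 6.76 and 6.26 in Stab2KO and 6.89, 7.60 and 5.46 in DKO, against 12.99 to 13.09 in WT. A two-sided exact permutation test gave p = 0.1 for Stab1, the smallest that 3 arrays against 3 allow, and p = 1.0 for Stab2. Without DKO replicate 3 the exact permutation test gave p = 0.2 for Stab1, again the smallest possible, and p = 0.4 for Stab2. The cells carried the markers of their labelled type: Clec4g, a lectin of the sinusoidal endothelium, measured 13.44 to 13.76, the Fc receptor Fcgr2b 13.38 to 13.57 and the VEGF receptor Kdr 13.23 to 13.46 in the 6 arrays.

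DKO replicate 3 stood apart from the rest of the series. Its correlation with the other 11 arrays over all genes was 0.956 to 0.968, while the other pairs among the 6 arrays reached 0.987 to 0.996. Averaged over 17 neutrophil genes, the level was 11.44 in that array against 5.98 and 6.42 in the other DKO arrays and 5.19, 5.23 and 6.01 in the Stab2KO arrays. Fewer cells of a type and less RNA per cell cannot be told apart in such pooled preparations.

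With all arrays, 822 of 24011 genes differed between DKO and Stab2KO at an adjusted p under 0.05 (limma, Benjamini-Hochberg over all genes), which is 3.42% of the genes tested. Of these, 313 genes (1.3%) were higher in DKO and 509 genes (2.12%) were lower. Without DKO replicate 3, the count was 821 genes (3.42%), of which 470 (1.96%) were higher and 351 (1.46%) were lower. The lists were not the same: 480 genes were called in both fits, which is 58.4% of the first list and 58.5% of the second, 204 of them higher, 276 lower and 0 with opposite signs. The rises were larger than the falls, with a median of 0.84 among the genes called higher and -0.52 among those called lower, beside -0.03 over all genes. A difference of more than 1 on the log2 scale was reached by 123 of the genes called higher and 20 of those called lower, and by 185 and 26 without DKO replicate 3.

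**Figure D1:**
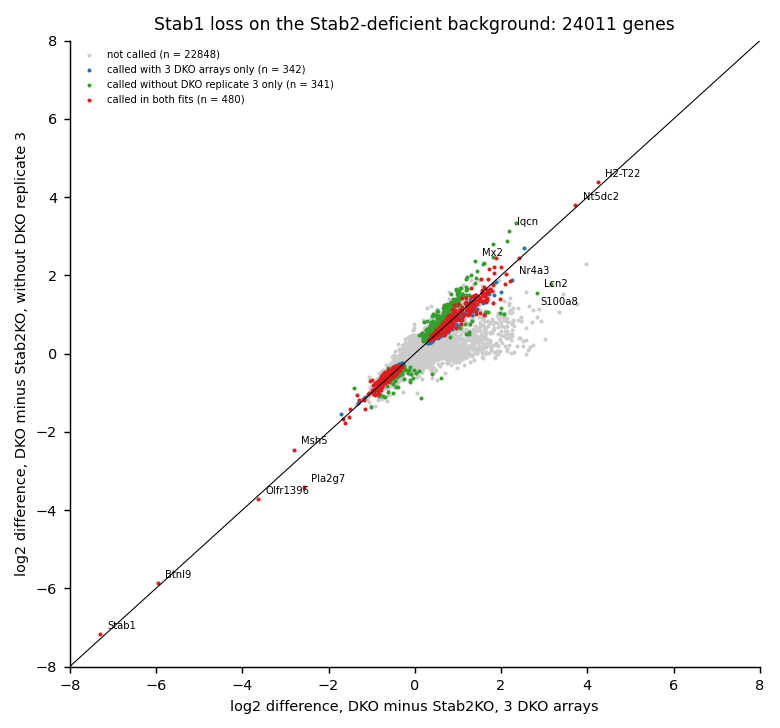
Log2 difference between DKO and Stab2KO for each of 24011 genes, with all 3 DKO arrays on the horizontal axis and without DKO replicate 3 on the vertical axis. Points on the diagonal line have the same difference in both fits; red genes were called in both (480), and genes below the diagonal on its right side, such as Lcn2, were higher in DKO replicate 3 than in the other DKO arrays.

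The number of calls rests on the arrays that enter the fit. It fell from 822 to 81 without Stab2KO replicate 1, to 45 without Stab2KO replicate 2 and to 366 without DKO replicate 1, and it was 854 without Stab2KO replicate 3. With the 6 arrays alone, which leave 4 residual degrees of freedom in place of 8, only 4 genes were called, and 117 with the 5 arrays left after dropping DKO replicate 3. An unadjusted p under 0.05 was reached by 4549 genes with all 12 arrays. Of 143 genes, 16 of them chosen after their values were seen and the others by a rule on size, position and list membership, 105 were called with all arrays, and 79 of those were no longer called without Stab2KO replicate 1 and 85 without Stab2KO replicate 2. The 20 that kept their call whichever array was left out were Stab1, H2-T22, Nt5dc2, Cfap69, H2-Q7, Btnl9, Olfr1396, Msh5, Ltc4s, Igsf23, Rflna, Ces2e, H2-T23, C2, Ddah2, Lrmda, Elf3, Idh3a, Kank1 and G3bp1, of which the last 4 were chosen after their values were seen. Differences of the other genes named below are sizes with an error, and their calls do not survive the loss of every single array.

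The largest rise next to the targeted gene was in Nt5dc2, a gene of the 5'-nucleotidase domain family that is the nearest neighbour of Stab1 on chromosome 14. It measured 7.73, 7.87 and 7.61 in Stab2KO and 11.37, 11.70 and 11.32 in DKO. Every DKO array was far above every Stab2KO array, a difference of 3.73 (SE 0.14, adjusted p = 2.55e-07) that was 3.80 without DKO replicate 3. The gene was also high in Stab1KO, at 11.94 to 11.99 against 7.14 to 7.58 in WT, so it was raised wherever Stab1 was deleted. The share of calls in the wider surroundings of Stab1 was near the background: 10 of 332 genes within 20 Mb were called (3.01%), and 14 (4.22%) without DKO replicate 3, beside 3.42% of all genes. Among them, Lrmda, 9.12 Mb from Stab1, was higher in DKO by 1.84 (adjusted p = 0.00078) and is taken up below with genes set apart by Stab2KO. Bmpr1a was higher by 1.32 (adjusted p = 0.0447, and 0.0705 without DKO replicate 3). The potassium channel gene Kcnk5 was higher by 1.25 (adjusted p = 0.0201). The basement membrane gene Nid2 fell by 0.79 (adjusted p = 0.00848).

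After Stab1, the largest fall was that of Btnl9, a butyrophilin-like gene of the immunoglobulin superfamily expressed in endothelium. Btnl9 measured 10.88, 11.19 and 10.51 in Stab2KO and 4.64, 5.33 and 4.72 in DKO, and its level was 11.25 to 11.80 in the 6 arrays of WT and Stab1KO. Only the DKO arrays were low, and the difference was -5.96 (SE 0.21, adjusted p = 2.46e-07), or -5.87 without DKO replicate 3. The olfactory receptor gene Olfr1396, its neighbour on chromosome 11, measured 7.69, 7.60 and 6.43 in Stab2KO and 3.22, 3.82 and 3.78 in DKO, a difference of -3.64 (adjusted p = 0.00078). Ltc4s, which encodes leukotriene C4 synthase and lies on the same chromosome, measured 8.97, 8.76 and 8.82 in Stab2KO and 7.14, 7.22 and 7.23 in DKO, a difference of -1.66 (SE 0.12, adjusted p = 0.00028). The stress granule gene G3bp1 (-0.97) and the copper chaperone gene Atox1 (-1.16), both on that chromosome too, were lower as well. In a window of 20 Mb around Btnl9, chosen after its value was seen, 21 of 472 genes were called (4.45%), 17 of them lower and 4 higher. Without DKO replicate 3 the window held 23 calls (4.87%), 13 lower and 10 higher. The share of all genes called was 3.42% in either fit.

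In another set of genes the difference lay with the Stab2KO arrays, which stood apart from the 3 other genotypes. H2-T22, a nonclassical MHC class I gene, measured 3.60, 7.50 and 5.95 in Stab2KO and 9.98, 10.17 and 9.65 in DKO, against 9.49 to 10.05 in WT and Stab1KO. Its difference of 4.25 (SE 0.71, adjusted p = 0.018) was the largest rise of the comparison, and the 3 Stab2KO arrays were themselves spread widely (SD 1.97). Lrmda, a gene of melanocyte differentiation on chromosome 14, measured 6.38, 6.21 and 6.34 in Stab2KO and 8.35, 8.38 and 7.72 in DKO, beside 8.30 to 8.64 in WT and Stab1KO. Its difference was 1.84 (adjusted p = 0.00078). Ifi208, an interferon-inducible gene of the Ifi200 family, was low in Stab2KO replicates 2 and 3 (3.39 and 3.33) and measured 5.99 in Stab2KO replicate 1, against 6.44 to 7.29 in DKO. It rose by 2.53 (adjusted p = 0.046) with all arrays and gave 2.70 (adjusted p = 0.0579) without DKO replicate 3.

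The same pattern was found with the opposite sign. Msh5, a meiotic mismatch repair gene, measured 9.34, 8.75 and 8.97 in Stab2KO against 6.45, 6.68 and 5.54 in DKO, with 5.83 to 6.57 in WT and Stab1KO. The fall from Stab2KO to DKO was -2.79 (SE 0.28, adjusted p = 0.00183). Pla2g7, which encodes the platelet-activating factor acetylhydrolase of plasma, measured 11.04, 11.01 and 10.95 in Stab2KO. It was 7.41 and 7.76 in DKO replicates 1 and 2 but 10.15 in DKO replicate 3, so its difference was -2.56 (adjusted p = 0.0362) with that array and -3.42 (adjusted p = 1.62e-05) without it. Clic5, an intracellular chloride channel gene named after its values were seen, was lower in DKO by a log2 difference of -0.84. Against WT, Clic5 differed by 1.46 in Stab2KO, 0.62 in DKO and 0.19 in Stab1KO, so its DKO level lay between WT and Stab2KO. H2-T22, Msh5, Pla2g7 and Clic5 all lie on chromosome 17. A 20 Mb window around H2-T22, again chosen after its value was seen, held 38 calls among 792 genes (4.8%), and 45 (5.68%) without DKO replicate 3. Over all genes the share was 3.42% in either fit. Against WT, with which this comparison shares the Stab2KO arrays, the differences of Stab2KO in H2-T22 (-3.97, adjusted p = 0.0564) and Ifi208 (-3.10, adjusted p = 0.0767) were not called. Stab2KO differed from WT by 3.54 in Pla2g7 (adjusted p = 0.0278), by 2.63 in Msh5 (adjusted p = 0.00443) and by -2.15 in Lrmda (adjusted p = 0.000317). DKO differed from WT by 0.98, -0.17 and -0.31 in Pla2g7, Msh5 and Lrmda, none of them called.

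**Figure D2:**
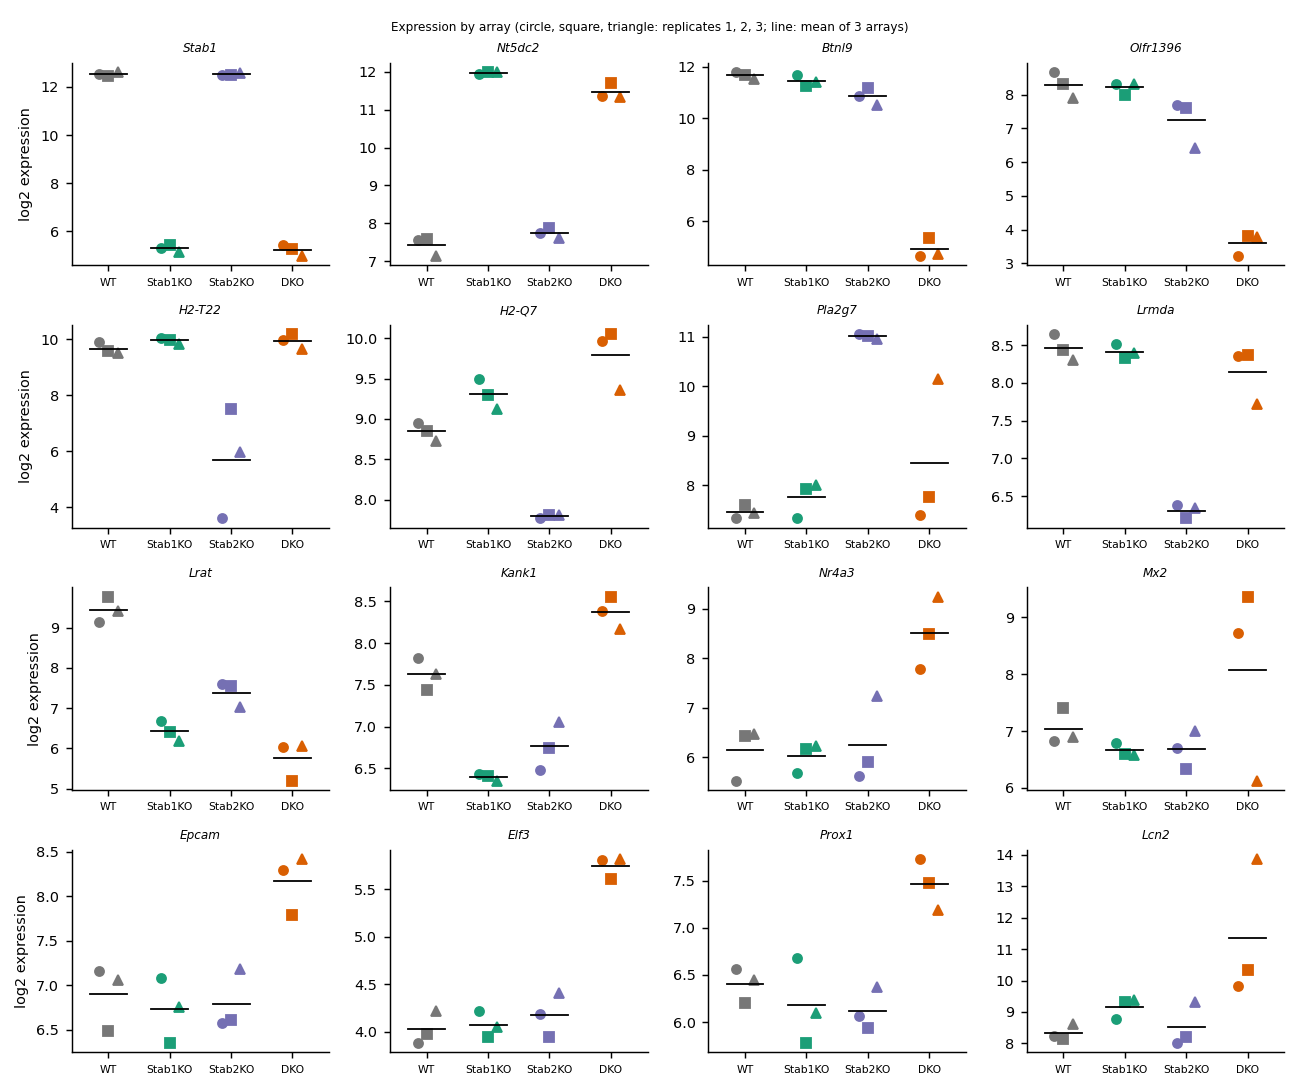
Log2 expression of 16 genes in each of the 12 arrays, grouped by genotype, with a symbol for each replicate and a line at the mean of the 3 arrays. Nt5dc2 was high wherever Stab1 was deleted, Btnl9 and Olfr1396 were low in DKO only, H2-T22, Pla2g7 and Lrmda were set apart by Stab2KO, and DKO replicate 3 (triangle) left its group in Pla2g7, Mx2 and Lcn2.

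Several strong differences of DKO belonged to no list. Cfap69, a gene of the sperm and cilium axoneme, measured 5.81, 5.50 and 4.75 in Stab2KO and 7.79, 7.78 and 7.74 in DKO, a rise of 2.42 (SE 0.25, adjusted p = 0.00256). Kank1, a regulator of the actin cytoskeleton at focal adhesions, measured 6.48, 6.75 and 7.06 in Stab2KO and 8.39, 8.56 and 8.17 in DKO, a rise of 1.61 (adjusted p = 0.00145). Igsf23, an immunoglobulin superfamily gene, fell by 1.52 on the log2 scale (adjusted p = 0.00359), from 9.52, 9.50 and 8.97 to 7.72, 7.69 and 8.02. Rflna, a refilin gene that acts on actin bundles, fell by 1.49, and Ces2e, a carboxylesterase gene, fell by 1.28. Idh3a, a subunit of the mitochondrial isocitrate dehydrogenase, measured 8.55, 8.67 and 8.39 in Stab2KO and 7.54, 7.49 and 7.33 in DKO, a fall of 1.09 (adjusted p = 0.00252). In these 6 genes the DKO arrays did not overlap the Stab2KO arrays, which held for all 822 called genes and for 21.2% of all genes tested.

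Some of the largest rises were made by DKO replicates 1 and 2 alone. Iqcn, an IQ motif gene, measured 9.84 and 10.09 in those arrays and 7.12 in DKO replicate 3, against 6.53, 6.03 and 7.92 in Stab2KO. Its difference was 3.14 (adjusted p = 0.00977) without DKO replicate 3 and 2.19 (adjusted p = 0.115) with it. Fam71a (2.87 without and 2.14 with that array), the ubiquitin ligase gene Trim69 (2.80 and 1.81) and Polg2, the accessory subunit of the mitochondrial DNA polymerase (2.10 and 1.44), shared this pattern. None of these 3 was called with all arrays.

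Hepatic stellate cells sit behind the sinusoidal wall and store vitamin A, and their transcripts enter a CD146 preparation when such cells are carried along. Of 27 measured stellate cell genes, 5 were lower in DKO than in Stab2KO and 0 were higher (median -0.23, beside -0.03 over all genes, of which 2.12% were called lower). Without DKO replicate 3 the counts were 3 and 0, with a median of -0.39, beside 1.46% of all genes called lower. Lrat, the enzyme that makes retinyl esters for storage, measured 7.60, 7.54 and 7.02 in Stab2KO and 6.03, 5.20 and 6.05 in DKO, a fall of 1.63 (SE 0.26, adjusted p = 0.0148). The collectin gene Colec11 measured 7.09, 6.88 and 6.58 against 5.81, 5.54 and 5.56, a fall of 1.21 (adjusted p = 0.0103). Bmp5, a bone morphogenetic protein, measured 5.86, 6.25 and 5.53 against 4.81, 4.57 and 4.70, a fall of 1.18 (adjusted p = 0.029). Tlcd4 (-1.16) and Angptl6 (-0.57) also fell, and the chemokine gene Cxcl12, from another list, fell by 0.82 (adjusted p = 0.0459). These 3 calls were lost without DKO replicate 3, with an adjusted p of 0.0695, 0.0743 and 0.0804.

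The stellate genes were lower still relative to WT, in which Lrat measured 9.13 to 9.77 and Colec11 8.57 to 9.13. The collagen genes Col1a1 (0.13), Col1a2 (-0.09) and Col3a1 (0.02), the PDGF receptor gene Pdgfrb (0.05) and Gfap (0.24) gave values near 0 and were not called. The mean over the list was 6.56, 6.55 and 6.34 in Stab2KO and 6.12, 5.94 and 6.30 in DKO, beside 7.60, 8.10 and 7.68 in WT. Without Stab2KO replicate 2, 0 of the 27 genes were called, and without Stab2KO replicate 1 only 1 was. Whether the number of stellate cells in the preparations or their RNA differed was not tested.

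Of 29 measured identity genes of the sinusoidal endothelium, 3 were lower in both fits and 0 were higher, and 1 of the 3 was Stab1 itself. Beside them, 2.12% of all genes were called lower with all arrays and 1.46% without DKO replicate 3. The list median was -0.18 (-0.11 without DKO replicate 3), beside -0.03 (-0.02) over all genes. Wnt2, an angiocrine Wnt ligand that acts on hepatocytes, measured 11.09, 11.06 and 10.67 in Stab2KO and 10.29, 10.37 and 9.83 in DKO, a fall of 0.78 (adjusted p = 0.0292). Fam167b measured 11.43, 11.43 and 11.34 against 10.94, 10.81 and 10.65, a fall of 0.60 (adjusted p = 0.0122). The transcription factor gene Gata4 (-0.22), the mannose receptor gene Mrc1 (-0.26), Lyve1 (0.38) and the growth factor gene Bmp2 (-0.21) were not called. Of 17 pan-endothelial genes, 1 was lower, the tight junction gene Cldn5 (-0.60, adjusted p = 0.0394, and 0.0705 without DKO replicate 3), and Pecam1 measured -0.12. Without Stab2KO replicate 1, and likewise without Stab2KO replicate 2, Stab1 was the only identity gene called.

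Of the genes of other endothelia, a few single members were called, in shares that rest on 1 or 2 genes a list beside 1.3% of all genes called higher. Prox1, the transcription factor of lymphatic endothelium, measured 6.07, 5.93 and 6.37 in Stab2KO and 7.73, 7.47 and 7.19 in DKO, a rise of 1.34 (SE 0.22, adjusted p = 0.0173). It was the only 1 of 8 lymphatic genes called. Prox1 is also a gene of hepatocytes, and the mean of the 17 hepatocyte genes was 7.66 to 8.21 in Stab2KO and 7.97 to 8.59 in DKO. None of them was called, but 12 of the 17 differences were above 0 (median 0.39). Without DKO replicate 3, 15 were above 0 (median 0.70). The part of hepatocyte RNA in the values of Prox1 and of the genes named below was not tested. Of 25 genes of large vessels and continuous endothelium, Ackr1, a chemokine-binding receptor of venules, rose by 0.72 (adjusted p = 0.0303). Selp, which encodes P-selectin, rose by 1.24 without DKO replicate 3 (adjusted p = 0.0419) and gave 1.04 (adjusted p = 0.0634) with it.

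Few scavenger receptor and clathrin genes were called lower, beside 2.12% of all genes. Of the 31 scavenger receptor genes, 2 were called lower, Stab1 itself and the collectin receptor gene Colec12. Colec12 measured 8.30, 8.19 and 8.03 in Stab2KO and 7.55, 7.61 and 7.39 in DKO (difference -0.66, adjusted p = 0.0103). Cd36, a scavenger receptor for lipids, was higher by 0.39 without DKO replicate 3 (adjusted p = 0.0346) and gave 0.30 (adjusted p = 0.0853) with it. Ap2s1, the small subunit of the clathrin adaptor AP-2, fell by 0.59 (adjusted p = 0.0146) as the only 1 of 26 clathrin and endocytosis genes called. Most of the others had small differences below 0, and only 2 of the 26 were above 0 in each fit. The list median was -0.18 (-0.15 without DKO replicate 3), beside -0.03 (-0.02) over all genes. Of 32 lysosome genes, 4 were lower (Hexa, Naglu, Man2b1 and Lamp2) and 1 was higher (Gla), with a median of -0.18, and Lamp2 lost its call without DKO replicate 3 (adjusted p = 0.0943). Hexa, a subunit of the hexosaminidase that also trims hyaluronan fragments, measured 10.85, 10.94 and 10.81 against 10.32, 10.18 and 10.04, a fall of 0.69 (adjusted p = 0.0103). Gla, which encodes alpha-galactosidase, rose by 0.89 (adjusted p = 0.029).

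Hyaluronan genes made a small group. Hyal2, a hyaluronidase at the cell surface, measured 11.17, 11.19 and 11.06 in Stab2KO and 10.53, 10.75 and 10.24 in DKO, a fall of 0.63 (adjusted p = 0.0273). With Hexa it was 1 of 2 called among 16, both lower, beside 2.12% of all genes called lower and 1.3% called higher. Of the 10 genes listed as stabilin ligands, Fn1, which encodes fibronectin, rose by 1.51 (adjusted p = 0.029), from 7.52, 7.66 and 7.95 to 9.39, 8.88 and 9.41, levels that in WT were 8.56 to 8.79. Without Stab2KO replicate 2, 0 of the 32 lysosome genes were called.

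The vasoactive genes moved in both directions. Of 26 measured, 4 were lower and 1 was higher in either fit (median -0.04), beside 2.12% of all genes lower and 1.3% higher with all arrays. Ddah1 and Ddah2 encode the enzymes that break down asymmetric dimethylarginine, an inhibitor of nitric oxide synthase. Ddah1 fell by 0.72 (adjusted p = 0.0207), and Ddah2 measured 9.22, 9.28 and 9.21 in Stab2KO and 8.68, 8.61 and 8.54 in DKO, a fall of 0.63 (adjusted p = 0.0079). Ramp3, a co-receptor for adrenomedullin, fell by 0.80, and Ptgis, the prostacyclin synthase gene, by 0.39. Gucy1b1, a subunit of the nitric oxide receptor guanylate cyclase, rose by 0.93 (adjusted p = 0.0226), from 7.49, 7.41 and 7.77 to 8.74, 8.58 and 8.14. The endothelial nitric oxide synthase gene Nos3 gave -0.36 (adjusted p = 0.102).

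Signalling genes of the vessel wall were called in several lists. Vegfa, the main endothelial growth factor, measured 8.37, 8.37 and 9.21 in Stab2KO and 10.06, 9.87 and 10.09 in DKO, a rise of 1.36 (SE 0.23, adjusted p = 0.0187). Its relative Vegfb fell by 0.48 (adjusted p = 0.0341, and 0.0623 without DKO replicate 3) and Angptl4, an inhibitor of lipoprotein lipase, rose by 0.74. Against WT, Angptl4 differed by -0.66 in Stab2KO and by 0.08 in DKO, so Stab2KO was the group set apart. Of the 20 genes of that list, 3 were higher and 2 lower, beside 1.3% and 2.12% of all genes. Without DKO replicate 3 the counts were 3 and 0, beside 1.96% and 1.46%. The receptor gene Notch2 rose by 1.60 (adjusted p = 0.0475) with all arrays and by 1.00 (adjusted p = 0.00167) without DKO replicate 3, in which it measured 9.84 against 8.08 and 8.01 in the other DKO arrays and 6.94 to 7.11 in Stab2KO. The Wnt antagonist gene Dkk3 fell by 0.67, and Cav2, a caveolin gene, fell by 0.40. The transcription factor gene Gata6 rose by 1.23 (adjusted p = 0.0213), from 6.54, 6.88 and 6.73 to 8.05, 7.78 and 8.02. Ankrd1, a target of YAP and TAZ, rose by 2.12 (adjusted p = 0.0168), from 6.05, 6.29 and 7.07 to 8.76, 8.24 and 8.77. The median over the 18 genes of that list was -0.03. Of them, 1 was called higher with all arrays and 4 without DKO replicate 3, beside 1.3% and 1.96% of all genes.

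Immediate early genes, which cells transcribe within minutes of a stimulus, had more members called higher with all arrays than any other of the 48 lists. All 32 measured members had a difference above 0, with a median of 0.76, and 9 were called higher and 0 lower (9 of 32, where 1.3% of all genes were called higher). The counts were again 9 and 0 without DKO replicate 3, with a median of 0.88 and 31 of 32 above 0, beside 1.96% of all genes called higher, and the interferon-stimulated list had more calls. Nr4a3, an orphan nuclear receptor, measured 5.61, 5.90 and 7.23 in Stab2KO and 7.78, 8.48 and 9.25 in DKO, a rise of 2.26 (SE 0.46, adjusted p = 0.031) that was 1.89 (adjusted p = 0.0532) without DKO replicate 3. The transcription factor gene Egr3 measured 5.43, 5.09 and 5.75 against 6.60, 6.97 and 7.73, a rise of 1.68 (adjusted p = 0.0122). Egr2 rose by 1.69 (adjusted p = 0.0332), the AP-1 subunit gene Fosl2 by 1.67 (adjusted p = 0.0279), Nr4a1 by 1.84 (adjusted p = 0.0422, and 0.0803 without DKO replicate 3) and Klf6 by 0.67 (adjusted p = 0.039). Fos (0.66) and Jun (0.23) were not called.

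Stab2KO replicate 3 was the nearest of its group to DKO in these genes. The mean over the 32 genes was 9.23, 9.17 and 9.88 in the Stab2KO arrays, 10.24, 10.46 and 10.31 in the DKO arrays and 9.06 to 9.58 in WT and Stab1KO. Without Stab2KO replicate 3 the number of calls grew from 9 to 16, and without Stab2KO replicate 1 or replicate 2 it was 0, as it was with the 6 arrays alone. The list median ranged from 0.63 to 1.02 over the fits with an array left out.

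Targets of NF-kB, the transcription factor of inflammatory signalling, were on the high side in DKO. All 21 measured members had a difference above 0 (median 0.82, and 0.90 without DKO replicate 3), of which 4 were called higher with all arrays and 2 without DKO replicate 3, beside 1.3% and 1.96% of all genes. Nfkbiz, an atypical inhibitor of the pathway, measured 9.11, 8.88 and 10.42 in Stab2KO and 11.07, 11.54 and 11.48 in DKO, a rise of 1.89 (SE 0.38, adjusted p = 0.031). Tnfaip3, which shuts the pathway off, rose by 1.22 (adjusted p = 0.0419), Birc3 by 0.60 and Nfkb2 by 0.46. Only Nfkb2 of these 4 was still called without DKO replicate 3, and the adjusted p was 0.0515 for Nfkbiz, 0.0693 for Tnfaip3 and 0.0576 for Birc3. Without Stab2KO replicate 1 or replicate 2, 0 of the 21 were called. Il1b (2.18), Cxcl2 (2.08) and Ptgs2 (2.24) had large differences that were not called, and without DKO replicate 3 they were 1.29, 1.04 and 1.06. Neutrophils also carry these 3 transcripts, and the part of the neutrophil genes of DKO replicate 3 in these values was not tested.

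**Figure D3:**
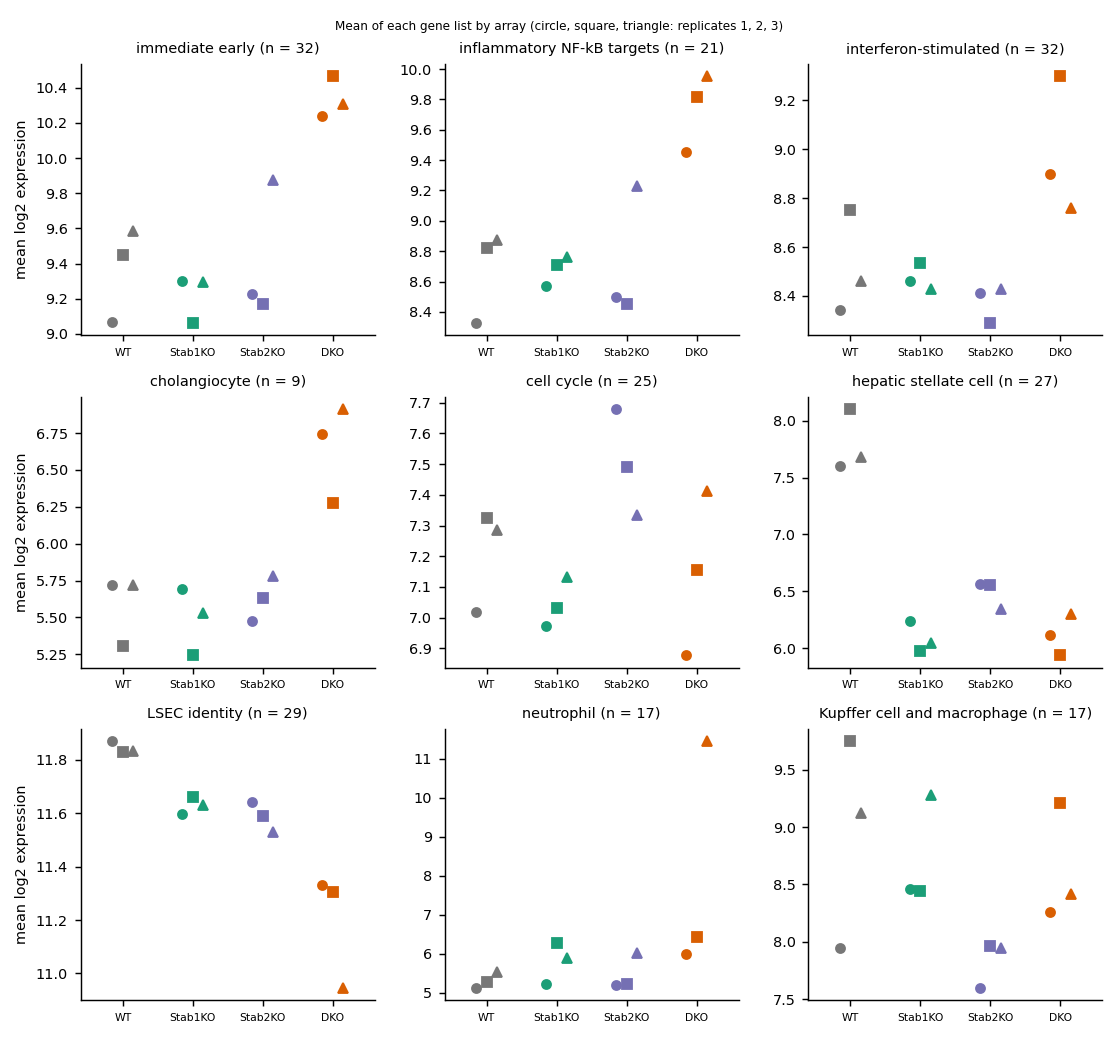
Mean log2 expression of 9 gene lists in each of the 12 arrays, grouped by genotype, with a symbol for each replicate. The LSEC identity mean includes the deleted genes Stab1 and Stab2, so its level falls with them and is no separate measure of identity. The immediate early, NF-kB and cholangiocyte lists were higher in all 3 DKO arrays than in the other 9, and the neutrophil list reached 11.44 in DKO replicate 3.

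Interferon-stimulated genes encode antiviral proteins and are switched on by type I interferon. Of 32 measured, 5 were higher and 0 lower with all arrays (median 0.53), and 11 were higher and 0 lower without DKO replicate 3 (median 0.66), with 31 of 32 differences above 0 in either fit, beside 1.3% and 1.96% of all genes called higher. Oasl1 measured 7.10, 6.42 and 7.01 in Stab2KO and 8.04, 8.90 and 8.23 in DKO, a rise of 1.55 (adjusted p = 0.0167). Oas2 rose by 2.00 (SE 0.42, adjusted p = 0.0339, and 0.052 without DKO replicate 3), from 5.84, 6.15 and 6.51 to 7.48 and 8.02 in DKO replicates 1 and 2 and a higher level still in DKO replicate 3, and the nucleic acid sensor gene Zbp1 rose by 1.43 (adjusted p = 0.021). Mx2, a dynamin-like antiviral GTPase, measured 8.73 and 9.37 in DKO replicates 1 and 2 but 6.13 in DKO replicate 3, against 6.71, 6.33 and 7.01 in Stab2KO. It rose by 2.36 (adjusted p = 0.00179) without DKO replicate 3 and gave 1.39 (adjusted p = 0.266) with it. Irgm1, a GTPase that targets vacuoles of intracellular pathogens, showed the same split, at 10.56 and 11.08 against 9.52 in DKO and 9.50 to 9.69 in Stab2KO. Without Stab2KO replicate 2, 0 of the 32 genes were called with all arrays and 2 without DKO replicate 3.

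The promoters of these genes are shown because many hold the element that interferon-activated factors bind. The element searched was GAAANNGAAA on either strand, in windows from 250 bases before to 50 bases after each start site (RefSeq, GRCm38.p6). It was present in 1131 of 32851 windows (3.44%). Among the interferon-stimulated genes, 24 of 32 had a window and 17 of those held the element (17 of their 27 windows). Of the 12 members called in either fit, 8 had a window and 4 held it: Ifit1, Irgm1, Rsad2 and Stat2. Genes called higher had 313 windows in that table, 18 of them with the element (5.75%), and genes called lower had 480, 11 of them with it (2.29%). An excess among the genes called higher was not particular to this element. The cAMP response element was in 11 of the 313 windows (3.51%, beside 1.79% of all windows) and 12 of the 480 (2.5%). The CArG box of the serum response element was in 9 (2.88%, beside 1.63%) and 5 (1.04%). A match is a description of the sequence and does not show binding. The windows of 3 of the 4 called interferon-stimulated genes follow, 5' to 3' on the strand of the gene, with each match to GAAANNGAAA in capitals. Ifit1 lies at chr19:34640639-34640938 on the plus strand, Irgm1 at chr11:48871371-48871670 on the minus strand and Rsad2 at chr12:26456403-26456702 on the minus strand, each 300 bases long.
Ifit1: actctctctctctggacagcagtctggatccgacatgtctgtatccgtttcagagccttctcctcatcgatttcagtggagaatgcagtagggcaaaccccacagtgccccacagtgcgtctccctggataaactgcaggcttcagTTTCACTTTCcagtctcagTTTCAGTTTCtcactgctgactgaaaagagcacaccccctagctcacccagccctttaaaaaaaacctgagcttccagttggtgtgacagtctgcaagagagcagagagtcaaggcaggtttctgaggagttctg
Irgm1: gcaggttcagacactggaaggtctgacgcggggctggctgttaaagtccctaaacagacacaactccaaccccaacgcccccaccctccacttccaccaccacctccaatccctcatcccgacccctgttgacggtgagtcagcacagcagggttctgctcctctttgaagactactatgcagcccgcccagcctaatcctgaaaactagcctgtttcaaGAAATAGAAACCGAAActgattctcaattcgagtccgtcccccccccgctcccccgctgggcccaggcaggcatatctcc
Rsad2: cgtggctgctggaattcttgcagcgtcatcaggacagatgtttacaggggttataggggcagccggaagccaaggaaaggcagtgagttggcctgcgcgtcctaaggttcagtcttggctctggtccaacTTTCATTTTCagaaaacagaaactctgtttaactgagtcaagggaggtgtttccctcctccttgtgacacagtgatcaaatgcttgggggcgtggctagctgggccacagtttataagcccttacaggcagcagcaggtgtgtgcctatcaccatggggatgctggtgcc
In Ifit1, which held 2 matches, the nearest lay 75 bases from the start site. In Irgm1, also with 2 matches, the distance was 14 bases, and in Rsad2, with 1 match, it was 110 bases. Ifit1 rose by 1.44 (adjusted p = 0.0323) without DKO replicate 3 and gave 1.00 (adjusted p = 0.176) with it. Irgm1 gave 1.24 (adjusted p = 0.00277) and 0.81 (adjusted p = 0.16) in the same order. Rsad2, which encodes the antiviral enzyme viperin, measured 10.20 to 10.55 in Stab2KO and 10.83 to 11.25 in DKO, a rise of 0.65 (adjusted p = 0.0394). For the immediate early list, the cAMP response element TGACGTCA on either strand was found in 3 of 25 genes with a window. Counted by window it was 3 of 31 (9.68%), beside 588 of 32851 windows (1.79%). The CArG box of the serum response element was found in 2 of the 25 genes. Counted by window it was 5 of 31 (16.1%), beside 535 of all windows (1.63%), and 4 of the 5 belonged to Egr2.

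MHC class I genes were called in a subset. Of 18 genes of class I presentation, 4 were higher and 1 lower with all arrays, and 6 were higher without DKO replicate 3, while the list median was -0.01 and 0.04 (all genes called higher 1.3% and 1.96%). The classical genes H2-K1 (-0.05) and H2-D1 (0.11) and the light chain gene B2m (0.00) had small differences that were not called. The members called higher with all arrays were nonclassical genes of the Q and T regions. H2-Q7 measured 7.77, 7.81 and 7.81 in Stab2KO and 9.97, 10.05 and 9.35 in DKO, a rise of 2.00 (SE 0.17, adjusted p = 0.00071), and H2-T23 measured 8.77, 9.35 and 9.09 against 10.53, 10.62 and 10.34, a rise of 1.43 (adjusted p = 0.00314). H2-Q6 rose by 0.88. In WT, H2-Q7 measured 8.73 to 8.96 and H2-T23 10.26 to 10.51, so the Stab2KO arrays were low in both genes. For H2-Q7 the DKO arrays also lay above WT, by 0.94 (adjusted p = 0.0209), while Stab2KO lay below it by a difference of -1.05 (adjusted p = 0.0286). These genes share long stretches of sequence, and probes may read more than 1 of them.

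Among 25 complement and coagulation genes, 4 were higher and 1 lower in either fit, beside 1.3% and 2.12% of all genes with all arrays and 1.96% and 1.46% without DKO replicate 3. C2, a complement protease gene of the MHC region, measured 7.16, 7.52 and 7.26 in Stab2KO and 8.03, 8.02 and 8.10 in DKO, a rise of 0.73 (SE 0.09, adjusted p = 0.00679). Its neighbour Cfb rose by 0.72, and the inhibitor gene Serping1 rose by 0.96 (adjusted p = 0.0279). Against WT, Cfb differed by -0.57 in Stab2KO and by 0.15 in DKO. F3, which encodes tissue factor, was 8.10 in DKO replicate 3 and 6.18 and 6.47 in the other DKO arrays, against 4.97 to 5.63 in Stab2KO. It rose by 1.04 (adjusted p = 0.0212) without that array and gave 1.63 (adjusted p = 0.0509) with it. The gene that fell was Colec11, which is also counted as a stellate gene.

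Genes of bile duct epithelium were higher in DKO. Of 9 measured cholangiocyte genes, 5 were called higher in either fit and 0 lower, all 9 differences were above 0, and the median was 1.03 (0.79 without DKO replicate 3), beside 1.3% and 1.96% of all genes called higher. Epcam, an adhesion molecule of epithelia, measured 6.58, 6.61 and 7.18 in Stab2KO and 8.29, 7.79 and 8.42 in DKO, a rise of 1.38 (SE 0.25, adjusted p = 0.0245). The transcription factor gene Sox9 measured 6.40, 6.82 and 7.15 against 8.57, 8.29 and 8.74, a rise of 1.74 (adjusted p = 0.0244). The mucin gene Muc1 rose by 1.59 (adjusted p = 0.024) and Tspan8 by 1.07 (adjusted p = 0.0303). Krt19, a keratin that defines bile ducts, measured 5.62, 5.76 and 5.62 in Stab2KO and 6.91, 6.01 and 7.16 in DKO, a difference of 1.03 (adjusted p = 0.0504), and Krt7 gave 0.12.

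Krt8 and Krt18, the keratin pair of simple epithelia, rose by 1.38 and 1.48, whereas the mesothelial genes proper on that list, such as Msln (0.19) and Upk3b (0.07), were not called. Further epithelial genes, named after their values were seen, were Elf3, Cdh1, Dsp, Bicc1 and Plet1. Elf3, an epithelial transcription factor, measured 4.19, 3.95 and 4.41 in Stab2KO and 5.81, 5.61 and 5.82 in DKO, a rise of 1.56 (SE 0.13, adjusted p = 0.000763). The E-cadherin gene Cdh1 rose by 1.49, and the desmosome gene Dsp by 1.60, the latter with an adjusted p of 0.0515 without DKO replicate 3. The mean of the cholangiocyte list was 6.74, 6.28 and 6.91 in DKO against 5.24 to 5.78 in the other 9 arrays, which do not overlap with it. Without Stab2KO replicate 1 or replicate 2, 0 of the 9 genes were called with all arrays. Whether epithelial cells were present in the DKO preparations was not tested.

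**Figure D4:**
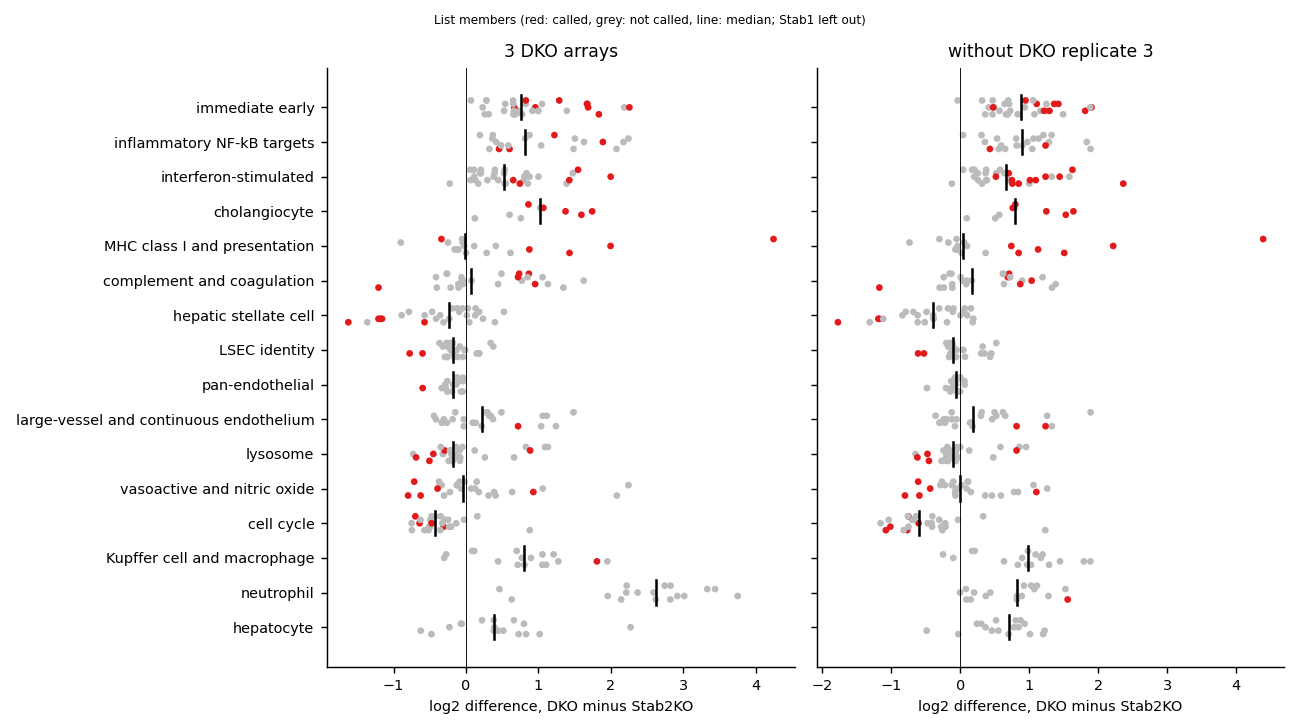
Log2 difference between DKO and Stab2KO for each member of 16 gene lists, with all 3 DKO arrays on the left and without DKO replicate 3 on the right. Red points were called, grey points were not, the black line is the list median, and Stab1 is left out; the immediate early, NF-kB and cholangiocyte lists lie to the right of 0 in both panels, apart from 1 immediate early gene in the right panel, while the neutrophil list moves from a median of 2.62 to 0.82.

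Cell cycle genes were on the low side. Of 25 measured, 4 were lower and 0 higher with all arrays (median -0.42), and 5 and 0 without DKO replicate 3 (median -0.60), beside 2.12% and 1.46% of all genes called lower. Ccnd1, the cyclin of the early cell cycle, measured 11.16, 11.34 and 11.24 in Stab2KO and 10.73, 10.55 and 10.53 in DKO, a fall of 0.64 (SE 0.09, adjusted p = 0.0122). The spindle checkpoint gene Bub1b fell by 0.70 (adjusted p = 0.0293). Ccna2, a cyclin of DNA replication, fell by 1.08 (adjusted p = 0.0368) without DKO replicate 3. With all arrays it gave -0.75 (adjusted p = 0.183), since it measured 7.64 in that array, the highest of the 3 DKO arrays, and 7.48 to 8.04 in Stab2KO. Without Stab2KO replicate 2, 0 of the 25 were called.

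Of 20 genes of endoplasmic reticulum stress, 3 were higher with all arrays and 4 without DKO replicate 3, with a median of -0.05 and 0.06, beside 1.3% and 1.96% of all genes. The transcription factor gene Ddit3 rose by 0.82 (adjusted p = 0.045), the chaperone gene Dnajb9 by 0.62, and Retreg1, a receptor for turnover of the reticulum, by 1.97 (adjusted p = 0.0368). In the circadian clock list of 17, Arntl, the core activator of the clock, rose by 1.30 (adjusted p = 0.0477), from 7.83, 7.54 and 7.40 to 9.45, 8.64 and 8.57. Dbp, an output gene of the clock, fell by 1.32 (adjusted p = 0.0431, and 0.0766 without DKO replicate 3), from 11.33, 11.34 and 11.47 to 9.33, 10.90 and 9.95. The hour of day at which livers were taken is unknown here. The glucose transporter gene Slc2a1 rose by 1.81 (adjusted p = 0.0303) in a list of 22 hypoxia and glycolysis genes, of which Vegfa was the other 1 called higher. Fdft1, the squalene synthase gene, was the only 1 of 20 lipid synthesis genes called (0.79).

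Genes of blood cells are given as values because their lists move with DKO replicate 3 or with DKO as a whole. For neutrophils, 0 of 17 genes were called with all arrays although the median was 2.62, and without DKO replicate 3 the median was 0.82 with 1 gene called, Lcn2 (1.56, adjusted p = 0.0434). Lcn2 measured 8.02, 8.20 and 9.32 in Stab2KO and 9.82, 10.32 and 13.87 in DKO. The Kupffer cell list had a median of 0.81 over 17 genes (0.98 without DKO replicate 3), with list means of 7.60 to 7.96 in Stab2KO and 8.26 to 9.21 in DKO. Its only gene called with all arrays was the lysosomal glycoprotein gene Cd68, at 1.81 (adjusted p = 0.0394, and 0.063 without DKO replicate 3). In WT that list mean was 7.95, 9.75 and 9.12, so that single WT arrays lay further apart than the Stab2KO arrays lay from the DKO arrays. The natural killer cell, T cell, smooth muscle, hepatocyte and erythroid lists had 0 genes called in either fit, with medians between -0.22 and 0.70. In the B cell list Pax5 was lower (-0.52, adjusted p = 0.0499, and 0.102 without DKO replicate 3). Outside that list, Ighg2c, an immunoglobulin heavy chain gene, rose by 2.08 (adjusted p = 0.0211), from 5.13, 4.45 and 4.44 to 5.78, 7.12 and 7.38. The part of these cells in the other results was not tested.

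The same loss of Stab1 with Stab2 present, Stab1KO against WT, shares no array with this comparison. There, 74 genes were called (0.308%). Of these, 17 were also called with the same sign in DKO against Stab2KO, which is 23% of the 74 and 2.07% of the 822, and 12 without DKO replicate 3 (16.2% and 1.46%). Over all genes the 2 sets of differences had a Pearson correlation of 0.10 and a Spearman correlation of 0.01, a description over genes that are not independent. Besides Stab1 and Nt5dc2, the shared genes included the stellate genes Lrat, Colec11, Bmp5, Tlcd4 and Angptl6, with differences of -3.01, -2.60, -3.32, -2.73 and -1.39 in Stab1KO against WT. The stellate list had 16 of 27 genes lower in Stab1KO than in WT (median -1.98), against 5 of 27 here (median -0.23). Of the 18 genes called in both comparisons in either direction, 5 lay on chromosome 19: Kank1, Gna14, Morn4, Arl3 and Mfsd13a. Arl3 was not called without DKO replicate 3. In DKO against Stab2KO, 46 of 761 genes of that chromosome were called (6.04%), beside 3.42% of all genes. That share was the highest of any chromosome, and the chromosome was named after the values were seen. Kank1 was the only gene called in both with opposite signs, at -1.23 in Stab1KO against WT and 1.61 in DKO against Stab2KO.

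**Figure D5:**
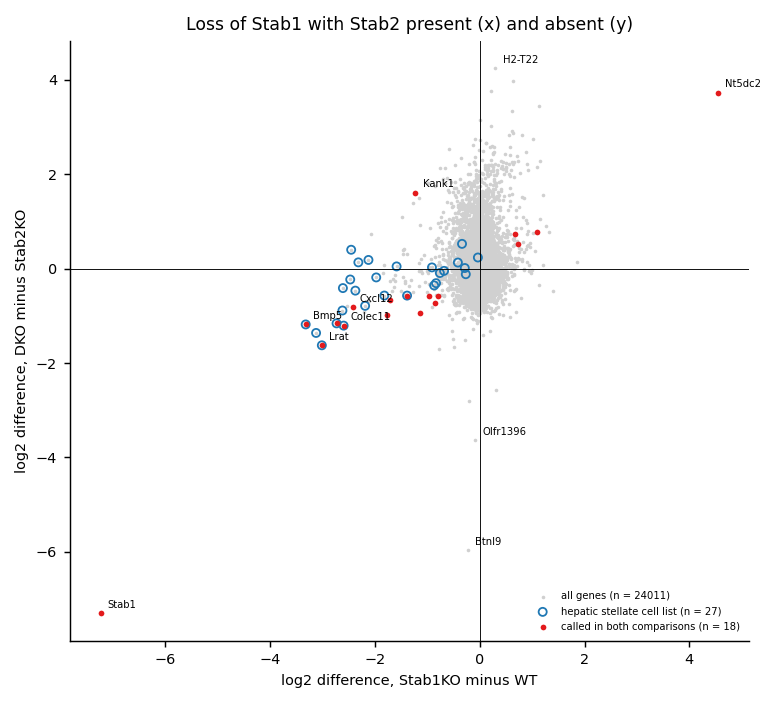
Log2 difference after loss of Stab1 with Stab2 present (Stab1KO minus WT, horizontal axis) and with Stab2 absent (DKO minus Stab2KO, vertical axis), for 24011 genes. Red points were called in both comparisons and blue circles are the 27 stellate genes, whose median was -1.98 on the horizontal axis and -0.23 on the vertical axis.

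The difference between the effects of Stab1 loss with and without Stab2 was itself tested in the same model. It was called for 12 genes with all arrays (0.05%) and for 112 genes without DKO replicate 3 (0.466%). Btnl9 stood first, with a departure of -5.74 (adjusted p = 2.74e-05). Olfr1396 (-3.55, adjusted p = 0.0253), Kank1 (2.84, adjusted p = 0.000721), Lrmda (1.89, adjusted p = 0.0253) and Elf3 (1.52, adjusted p = 0.0253) were also among the 12. In Lrmda the Stab2KO arrays were those set apart from the other genotypes, as given above. For the stellate genes the departure was not called with all arrays (Lrat 1.39, adjusted p = 0.154), while Bmp5 (2.14, adjusted p = 0.0383) and Colec11 (1.43, adjusted p = 0.0493) passed without DKO replicate 3. For Nt5dc2 it was -0.82 (adjusted p = 0.13). For the immediate early gene Nr4a3 it was 2.37 (adjusted p = 0.161) and for the cholangiocyte gene Epcam 1.55 (adjusted p = 0.13), neither of them called.

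A cluster of microRNA genes was among the rises without DKO replicate 3, and is shown for its sequences. MicroRNAs are short RNAs that pair with messenger RNAs through their seed, bases 2 to 8. Mir23a, Mir27a and Mir24-2 lie within 404 bases on chromosome 8 (chr8:84208518-84208921, plus strand, GRCm38.p6) and were named after their values were seen. Mir23a measured 7.10, 7.02 and 6.71 in Stab2KO and 9.10, 9.68 and 7.72 in DKO, a rise of 1.89 (adjusted p = 0.049), or 2.45 (adjusted p = 0.00933) without DKO replicate 3. Mir27a measured 6.98, 6.71 and 7.33 against 8.91, 9.56 and 8.03, a rise of 1.83 (adjusted p = 0.02), or 2.23 without DKO replicate 3. Mir24-2 measured 3.66, 3.51 and 3.81 against 4.61, 4.97 and 3.87, with 0.83 (adjusted p = 0.0643) and 1.13 (adjusted p = 0.00302) in the same order. In all 3 genes DKO replicate 3 lay nearest to Stab2KO. The array rows stand for the genes and do not separate precursor from mature RNA or 1 arm from the other. The mature 3' arms from RefSeq follow, with the seed in capitals, and no seed is shared among them.
miR-23a-3p: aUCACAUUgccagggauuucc
miR-27a-3p: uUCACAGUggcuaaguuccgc
miR-24-3p: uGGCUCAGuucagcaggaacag
Of 535 microRNA genes on the array, 16 were higher without DKO replicate 3 (2.99%, beside 1.96% of all genes) and 0 lower. With all arrays 3 were higher (0.561%, beside 1.3% of all genes), so the share lay above that of all genes in 1 fit and below it in the other. Long noncoding RNAs gave 43 of 2695 higher (1.6%) without DKO replicate 3 and 7 (0.26%) with it, both below the share of all genes.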

How the data were processed

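Gene expression was measured on single-channel Affymetrix arrays in 12 samples of 4 genotypes with 3 replicates each, every replicate a pool of 3 mice. The deposited values are log2 expression values made with RMA, per the submitters' processing notes, and the version is not given in the sources used here. Sorted values of the arrays differed by at most 0.00187, so a change in total RNA per cell cannot be seen. Of 24973 rows, 958 had no gene symbol and 4 repeated a symbol, which left 24011 genes. Symbols came from the platform annotation, and 23918 genes had a chromosome in RefSeq (GRCm38.p6).

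One limma model (version 3.58.1, R 4.3.3) with 4 group means was fitted to the 12 arrays and again without DKO replicate 3. Genes were called at an adjusted p under 0.05, Benjamini-Hochberg over all 24011 genes. The p-values measure the spread between pools. The fitting steps were tested on simulated data. The comparison, the 48 gene lists (824 genes measured) and the tests were chosen with earlier results of these data known, and list counts are descriptions without a test of the list.

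Named genes were Stab1 and Stab2, the 12 largest rises and falls with all arrays and the 10 largest without DKO replicate 3 among called genes whose groups did not overlap, up to 4 called members of each list and up to 4 called genes within 20 Mb of Stab1. Other members are named as examples, and genes said to be named after their values were seen lie outside the rule. The number of arrays limits the precision. Same-numbered arrays of DKO and Stab2KO did not deviate together (r = 0.03, -0.003 and 0.07), so replicate numbers were not used as pairs. Alternatives were renormalization, a filter at the 40th percentile of the mean signal, every row tested, a variance trend with robust fitting, array weights, the compared arrays alone, a minimum log2 difference of 1, a replicate block and leaving out each array.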

Additional observations from a re-analysis of the deposited data

Results flagged for a closer look

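For 28 named genes the difference after Stab1 loss was not the same with and without Stab2, by the test of the difference itself (DKO minus Stab2KO less Stab1KO minus WT, limma, adjusted over all genes). The test does not separate an effect of Stab1 loss from a shift of the Stab2KO arrays alone. Msh5 differed from WT by 2.63 in Stab2KO but by -0.17 in DKO and -0.21 in Stab1KO. For Lrmda these values were -2.15, -0.31 and -0.05. With all arrays these were Btnl9 (-5.74), Olfr1396 (-3.55), Kank1 (2.84), Lrmda (1.89) and Elf3 (1.52). The others passed only without DKO replicate 3. Among MHC class I genes they were H2-Q5 (2.0), H2-Q7 (1.76) and H2-T23 (1.28). Antiviral genes were Mx2 (2.74) and Irgm1 (1.33), and the microRNA genes were Mir23a (3.16), Mir27a (2.7) and Mir24-2 (1.23). The stellate genes Bmp5 (2.14) and Colec11 (1.43) had positive values, as their fall after Stab1 loss was the smaller of both with Stab2 absent. The DKO level of Bmp5 lay near the lower end of the array, and the part of this in its value was not tested. Negative values were those of Pla2g7 (-3.72), Msh5 (-2.24), Atox1 (-1.35), Igsf23 (-1.34), Ltc4s (-1.19) and Idh3a (-0.95). Further positive values were those of Fam71a (3.64), Iqcn (3.61), Nabp1 (1.94), Nr4a2 (1.52), Angptl4 (0.99), Notch2 (0.92) and Tspan8 (0.9).

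Outside the genes reported on, 24 of the 958 array rows without a gene symbol were called with all arrays, and 22 without DKO replicate 3. Beside them, 3.42% of the genes tested were called in either fit.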

How the results depend on the processing

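The counts kept within 1.5 times of 822 (all arrays) and 821 (without DKO replicate 3) after renormalization, with the low signal filter, with every row tested, and with trend and robust fitting. With array weights they were 1789 (776 higher, 1013 lower) and 1810 (903 and 907). With only the DKO and Stab2KO arrays they were 4 (1 and 3) and 117 (97 and 20), on 4 and 3 residual degrees of freedom. With a minimum log2 difference of 1 they were 4 (1 and 3) and 7 (3 and 4). Leaving out 1 array at a time gave 45 to 854 genes with all arrays (18 to 470 higher, 27 to 569 lower) and 79 to 1252 genes without DKO replicate 3 (48 to 641 higher, 27 to 611 lower). With the replicate block the counts were 717 (313 higher, 404 lower) and 796 (494 and 302), and the block lost 19 of 105 and 9 of 106 calls among the named genes. None of the named genes called in either fit changed direction under the settings run for them, and named genes that were not called were not followed, such as Stab2 (-0.16 with all arrays and 0.44 without DKO replicate 3). The cause of these moves was not tested, except that the compared arrays alone and each left-out array reduce the arrays in the fit. Signal near the lower end of the array, as in Mir24-2 and in Btnl9 and Bmp5 of DKO, compresses differences.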

Other observations

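Genes of the mitochondrial respiratory chain and ATP synthase, a family chosen after values were seen, were on the low side in DKO. Of 76 measured subunits, 13 were lower than in Stab2KO (17.1%, beside 2.12% of all genes) and 0 were higher, with a median of -0.30, and 12 and 0 without DKO replicate 3 with a median of -0.26. Ndufa7, a subunit of complex I, had a difference of -0.84, and Atp5e, a subunit of the ATP synthase, one of -0.79. In Stab1KO against WT the median of the family was 0.06. Without Stab2KO replicate 1 only 1 of the 76 was called and without Stab2KO replicate 2 there were 0. Of 68 genes of cytosolic ribosomal proteins, 4 were lower and 0 higher with all arrays (median -0.10), and 1 was lower and 1 higher without DKO replicate 3.

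The protein-coding genes called higher were longer than those called lower. The median gene span was 27.6 kb for 295 genes called higher, 13.7 kb for 486 called lower and 18.5 kb over all 19641 tested. Without DKO replicate 3 it was 18.9 kb for the genes called higher and 13 kb for those called lower. These are descriptions over genes, without a test.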
